A study of Mus musculus with 12 samples.

Results

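The calmodulin genes Calm2 and Calm3 were followed in 12 libraries of RNA 3′ ends from the L4-L6 dorsal root ganglia (DRG) of Adv-Cre//Ribotag mice, in which advillin-driven Cre marks sensory neurons by an HA tag on the ribosomal protein Rpl22. One sciatic nerve was crushed, and ganglia of the injured and of the naive side were taken from each animal 3 days later and pooled from 4 mice per library. The 4 groups held 3 libraries each. The IP injured and IP naive groups were RNA from the HA immunoprecipitate of injured and naive ganglia, and the input injured and input naive groups were RNA of the same kinds of ganglia before precipitation. All 4 groups carried both the Cre and the tagged Rpl22. Age, sex and strain background were not given in the sources used here. Members were the intervals of the deposited count table (called sites) that lay on the strand of Calm2 or Calm3, from the gene's start to 200 bp past its annotated 3′ end, outside repeats or at that end. This gave 2 genes of 13628 with a gene sum, and 3 sites of 178431. Total counts ranged from 10045178 to 18687123 per library. The labels do not say that the pools came from separate cohorts, so p-values measure the spread between these pools only. The main tests treated the libraries as independent, although injured and naive ganglia came from the same animals.

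Calmodulin is a small EF-hand protein that binds calcium and then docks on kinases, phosphatases, channels and cytoskeletal proteins. Several genes of the genome encode the same protein, so the genes differ in their promoters and in the untranslated parts of their RNAs. In sensory neurons calmodulin tunes ion channels and carries calcium signals to the CaM kinases and to calcineurin. A gene with more than one polyadenylation site gives RNAs that end at different places, and QuantSeq REV libraries read that end directly. Each read stands for an RNA end, so levels were not divided by transcript length.

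Calm2 (gene identifier 12314, GRCm38 chromosome 17, 87433401 to 87446935, minus strand as read from the counts) had a single member site, at 87433432 to 87433457. It lay 31 bp upstream of the annotated 3′ end and held 383036 counts over the 12 libraries. A further site on the same strand, at 87439218 to 87439243, lay in an Alu repeat 5817 bp upstream of that end. It held 97 counts, did not meet the rule and stayed out of the gene sum. Alternative 3′ ends could therefore be compared in Calm3 and not in Calm2.

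Calm3 (gene identifier 12315, chromosome 7, 16915379 to 16924032, annotated on the minus strand) had 2 member sites. The distal site at 16915388 to 16915423 lay 9 bp upstream of the annotated 3′ end and held 71814 counts. The proximal site at 16916814 to 16916847 lay 1435 bp upstream of that end and held 2780 counts. The site starts were 1426 bp apart. No site lay on the opposite strand of either gene and none past an annotated 3′ end within the range examined. Coordinates are those of the deposited table, which does not say whether they count from 0 or from 1. Whether the proximal site lies in an exon or an intron was not analysed here. Its sequence was not examined either, so whether it is a true polyadenylation site was not tested. Of 11463 genes with a tested site outside repeats or at the annotated end, 6092 (53.1%) had a single one like Calm2, and 5371 had more than 1 like Calm3.

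Calm2 RNA was among the most abundant in every group. In IP injured libraries 1, 2 and 3 it reached 2516, 2484 and 2280 CPM (counts scaled to a common library size after TMM normalisation), against 2319, 3010 and 2608 CPM in IP naive libraries. Input injured libraries held 1966, 1795 and 1467 CPM and input naive libraries 2082, 2126 and 1712 CPM. All 6 IP libraries therefore lay above all 6 input libraries, while injured and naive libraries overlapped in both fractions. The share of all genes that separate the fractions in this way was not counted. Group means were 2427 ± 128 CPM in IP injured, 2646 ± 347 in IP naive, 1743 ± 254 in input injured and 1973 ± 227 in input naive ganglia (SD, n = 3 each). By mean level Calm2 ranked 20 in IP injured, 17 in IP naive, 29 in input injured and 20 in input naive ganglia among 11553 tested genes.

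Calm3 was lower than Calm2 in every library. It had 459.7, 375 and 495 CPM in IP injured libraries 1, 2 and 3 and 459, 370.2 and 527 CPM in IP naive ones. The input injured libraries held 336, 381 and 454 CPM and the input naive libraries 402, 405 and 455 CPM. Every pair of groups overlapped, and library 3 was the highest of its group in all 4. Means were 443 ± 61.8 CPM in IP injured, 452 ± 78.5 in IP naive, 390.2 ± 59.8 in input injured and 421 ± 29.5 in input naive ganglia (SD, n = 3 each). Calm3 ranked between 255 and 298 of 11553 genes by mean level, so that 97.4% to 97.8% of the tested genes were lower.

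**Figure D1:**
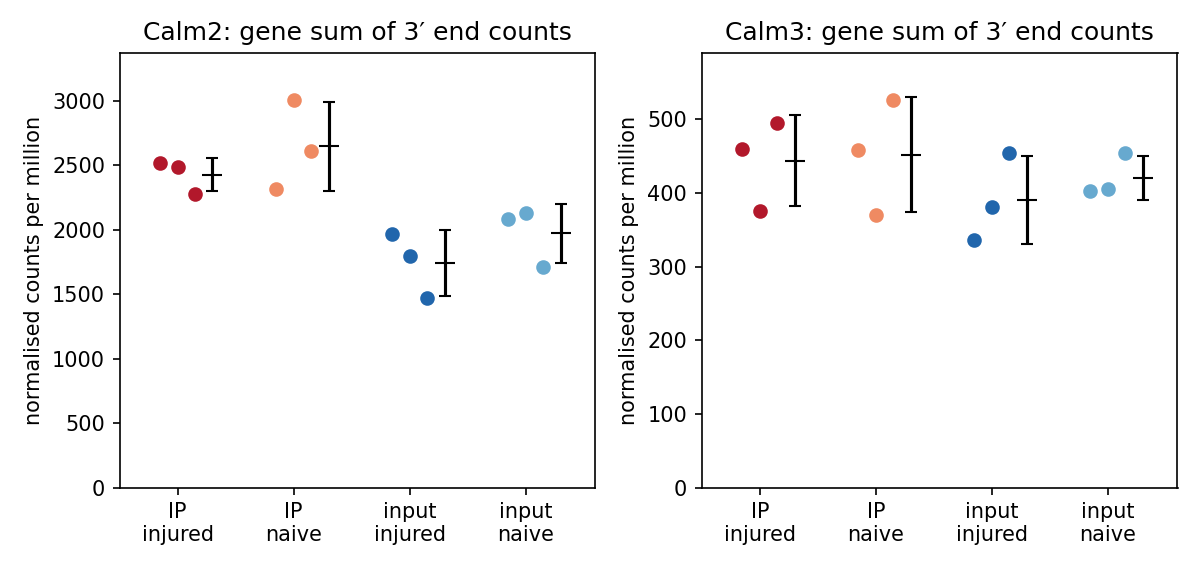
Gene sums of Calm2 (left) and Calm3 (right) in CPM, 1 point per library, in IP injured, IP naive, input injured and input naive ganglia. Black marks are the mean and SD of 3 libraries. Calm2 was higher in all IP than in all input libraries, and the Calm3 groups overlapped.

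Nerve crush did not change either gene sum past the test. Against IP naive ganglia, Calm2 in IP injured ganglia had a log2 fold change of -0.12 ± 0.12 (SE, 95% interval -0.38 to 0.13, adjusted p = 0.88, edgeR quasi-likelihood test). Calm3 had a log2 fold change of -0.03 ± 0.15 (-0.34 to 0.29, adjusted p = 0.995, edgeR). Neither member was among the 1.34% of genes that rose or the 0.164% that fell in this comparison. In input injured against input naive ganglia the log2 fold change was -0.18 ± 0.12 for Calm2 (-0.43 to 0.07, adjusted p = 0.69, edgeR) and -0.11 ± 0.15 for Calm3 (-0.42 to 0.21, adjusted p = 0.91, edgeR). Of all genes 0.866% rose and 0.277% fell there. Library factors from a fit over all sites, in place of those over genes, moved the median of all genes to -0.12 in the input comparison. Relative to the median gene, the input values stayed at -0.18 for Calm2 and between -0.12 and -0.11 for Calm3 under each of 4 scalings. The injury effect in IP minus that in input was 0.05 ± 0.17 for Calm2 and 0.08 ± 0.21 for Calm3 on the log2 scale (adjusted p = 1 for both, edgeR). No gene passed this interaction test (0%), where 396 genes had an unadjusted p under 0.05 and DESeq2 called 14 genes. With no effect at all, a share of about 0.05 of the 11553 tested genes would have such an unadjusted p.

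Calm2 was higher in neuronal ribosome-bound RNA than in whole-ganglion RNA. In IP injured against input injured ganglia it was 1.39-fold higher, a log2 difference of 0.48 ± 0.12 (SE, 95% interval 0.22 to 0.73, adjusted p = 0.0216, edgeR). In IP naive against input naive ganglia it was 1.34-fold higher, a log2 difference of 0.42 ± 0.12 (0.17 to 0.68, adjusted p = 0.0395, edgeR). Genes that passed as higher in IP made up 1.95% of those tested in injured and 1.99% in naive ganglia, and those that passed as lower 3.82% and 4.86%. Of the genes that passed, 33.8% were thus higher in IP in injured and 29.1% in naive ganglia, shares that the library factors of the fit over all sites (site fit) moved to 84.4% and 73.1%. With the factors of the gene fit they were 20.7% without IP injured 1 and 21.5% without IP injured 3, and 17.4% without IP naive 1 and 13.8% without IP naive 3. Calm3 differed by 0.18 ± 0.15 in injured ganglia (-0.13 to 0.50, adjusted p = 0.595, edgeR) and by 0.10 ± 0.15 in naive ganglia (-0.21 to 0.42, adjusted p = 0.78, edgeR), which did not pass the test. In bulk RNA, fewer cells of a type and less RNA per cell cannot be told apart.

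The Calm2 calls sat close to the threshold of 0.05. In injured ganglia the call was lost without IP injured 1 (adjusted p = 0.0973, edgeR), IP injured 2 (0.0656), input injured 2 (0.051) or input injured 3 (0.0992), with log2 differences of 0.37 to 0.57 over the 6 libraries left out in turn. In naive ganglia it was lost without IP naive 2 (adjusted p = 0.149, edgeR), IP naive 3 (0.0949), input naive 1 (0.0714), input naive 2 (0.0513) or input naive 3 (0.157), with log2 differences of 0.32 to 0.51. The direction was the same in each of these fits. A further fit held a term for replicate number (replicate block). Calm2 then differed by 0.48 in injured (adjusted p = 0.00278, edgeR) and 0.43 in naive ganglia (adjusted p = 0.00685, edgeR). The labels do not say that equal numbers mark the same pool. The size of the Calm2 difference also depends on the scaling of IP against input libraries. The library factors of the fit over all sites moved the median of all genes to 0.40 in injured and 0.28 in naive ganglia. Relative to the median gene, Calm2 was 0.45 higher in injured and 0.44 to 0.45 higher in naive ganglia under each of 4 scalings. Calm3 was 0.16 to 0.17 higher than the median gene in injured and 0.12 to 0.13 higher in naive ganglia under the same scalings. With the site fit's factors the Calm3 value in injured ganglia was 0.58 and passed the test (adjusted p = 0.0204, edgeR), a setting added after the data were seen.

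Markers of the labelled cells were present. All 16 sensory neuron markers were detected, and their summed level was 20242 to 21788 CPM in IP injured, 19784 to 22943 in IP naive, 15743 to 17266 in input injured and 16443 to 17381 in input naive libraries. The 41 detected markers of glia, macrophages, fibroblasts, vessels and erythroid cells summed to 1856 to 2729 CPM in IP injured, 1430 to 2175 in IP naive, 9082 to 10570 in input injured and 8033 to 9701 in input naive libraries. Up to 3 of the 41 were at 0 in an IP injured library, where IP injured 2 lacked Gjb1, Cd14 and Cldn5. Up to 7 were at 0 in an IP naive library, with the macrophage markers Csf1r and Cd14 at 0 in both IP naive 1 and IP naive 3. At most 1 was at 0 in an input naive library. The ratio of IP to input group means was 1.39 for Calm2, 1.14 for Calm3, 1.27 for the summed neuronal markers and 0.234 for the summed non-neuronal markers in injured ganglia. In naive ganglia it was 1.34 for Calm2, 1.075 for Calm3, 1.28 for the neuronal and 0.207 for the non-neuronal markers. The part of non-neuronal RNA in the IP-to-input differences of the members was not tested.

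The proximal end of Calm3 separated the fractions. Its level was 12.4, 8.27 and 12.4 CPM in IP injured libraries 1, 2 and 3, against 6.57, 7.002 and 6.01 CPM in IP naive libraries. Input injured libraries held 19.2, 33.8 and 20.6 CPM and input naive libraries 18.1, 30.3 and 32.2 CPM. All IP libraries lay below all input libraries, and the IP injured libraries lay above the IP naive ones. Separation of 3 against 3 libraries has an exact permutation p of 0.1. The share of all sites that separate the groups in this way was not counted. The distal end held 447, 367 and 483 CPM in IP injured, 452, 363 and 521 in IP naive, 317, 347 and 434 in input injured and 384, 374 and 422 in input naive libraries. Those groups overlapped throughout.

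**Figure D2:**
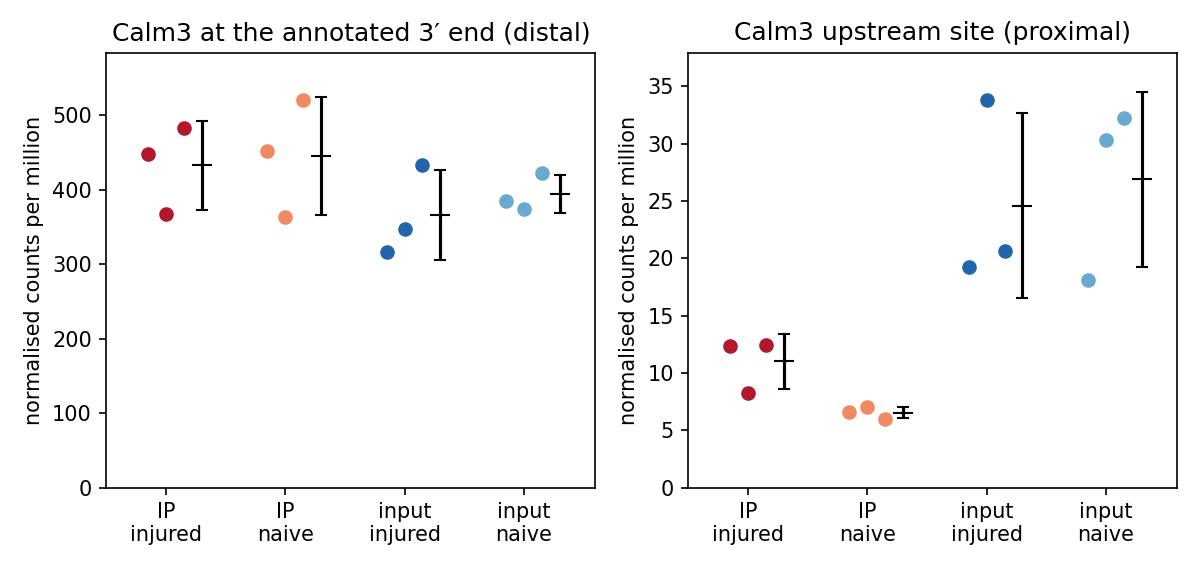
Levels of the distal (left) and the proximal (right) Calm3 site in CPM, 1 point per library, with the mean and SD of 3 libraries in black. The distal site overlapped between groups, while the proximal site was between 6.01 and 12.4 CPM in IP and between 18.1 and 33.8 CPM in input libraries.

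In a fit over all 46229 tested sites, the proximal Calm3 site was 3.32-fold lower in IP naive than in input naive ganglia, a log2 difference of -1.73 ± 0.36 (SE, 95% interval -2.50 to -0.96, adjusted p = 0.0194, edgeR). In IP injured against input injured ganglia the log2 difference was -0.76 ± 0.35 (-1.51 to -0.01, adjusted p = 0.214, edgeR), which did not pass. Sites that passed in either direction were 4.27% of those tested in naive and 5% in injured ganglia. The naive call was lost without IP naive 1 (adjusted p = 0.0789, edgeR), IP naive 3 (0.0897), input naive 2 (0.0703) or input naive 3 (0.0766), with log2 differences of -1.75 to -1.56 in these 4 fits. The distal site differed by 0.63 ± 0.18 in injured (adjusted p = 0.0633, edgeR) and by 0.49 ± 0.18 in naive ganglia (adjusted p = 0.135, edgeR). The injured value passed without IP injured 2 (0.86, adjusted p = 0.0125, edgeR). Both distal values passed with the replicate block, as given with the processing below. The Calm2 site, which is the whole Calm2 sum, differed by 0.85 ± 0.14 in injured (adjusted p = 0.00684, edgeR) and 0.72 ± 0.14 in naive ganglia (adjusted p = 0.013, edgeR). The naive call of the Calm2 site was lost without IP naive 3 (0.71, adjusted p = 0.0586, edgeR). These site values use the library factors of the site fit, which place IP libraries higher than those of the gene fit do.

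After nerve crush no member site passed. The proximal Calm3 site in IP injured against IP naive ganglia had a log2 fold change of 0.72 ± 0.35 (SE, -0.03 to 1.48, adjusted p = 0.553, edgeR), where 0.27% of sites passed. In input injured against input naive ganglia it had -0.25 ± 0.34 (-0.99 to 0.49, adjusted p = 0.992, edgeR), where 0.195% passed. The distal site had -0.09 ± 0.18 in IP and -0.24 ± 0.18 in input (adjusted p = 1 and 0.852, edgeR). The difference between the injury effects in IP and in input was 0.97 ± 0.49 for the proximal site (-0.09 to 2.03, adjusted p = 0.933, edgeR). No site passed this interaction test (0%), where 2387 sites had an unadjusted p under 0.05 and DESeq2 called 77. With no effect at all, a share of about 0.05 of the 46229 tested sites would have such an unadjusted p.

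**Figure D3:**
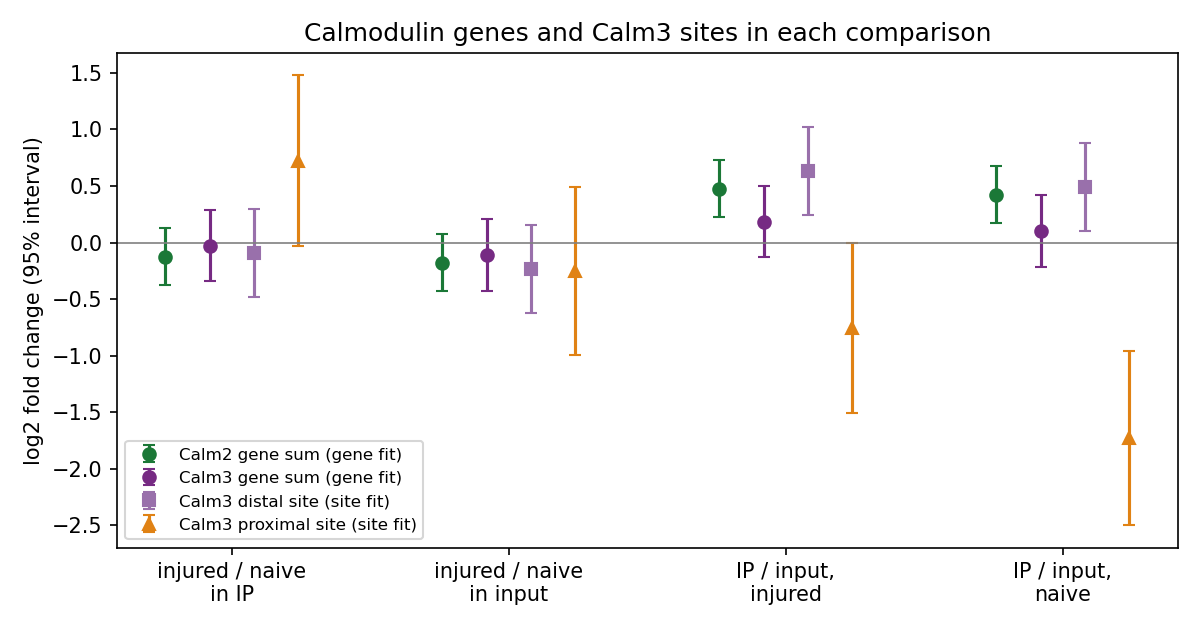
Log2 fold changes of the Calm2 and Calm3 gene sums (circles, gene fit) and of the distal (squares) and proximal (triangles) Calm3 sites (site fit) in 4 comparisons, with 95% intervals. The intervals of the Calm2 sum and of the distal Calm3 site lay above 0 in both IP-to-input comparisons. Those of the proximal Calm3 site lay below 0 in both, at -1.51 to -0.01 in injured and -2.50 to -0.96 in naive ganglia. The distal site passed in neither (adjusted p = 0.0633 in injured and 0.135 in naive ganglia, edgeR). The proximal site did not pass in injured ganglia (adjusted p = 0.214, edgeR). Site values use the library factors of the site fit, which place IP libraries higher than those of the gene fit do.

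The share of the proximal end in Calm3 counts does not depend on library scaling. The proximal end took 2.69%, 2.21% and 2.51% of Calm3 counts in IP injured libraries 1, 2 and 3, and 1.43%, 1.89% and 1.14% in IP naive libraries. It took 5.73%, 8.89% and 4.54% in input injured libraries and 4.51%, 7.49% and 7.09% in input naive libraries. These shares rest on 95 to 432 proximal reads of 3388 to 9809 Calm3 reads per library. The 95% Wilson intervals ran from 1.82% to 3.07% over the IP injured libraries and from 0.9499% to 2.31% over the IP naive libraries. Those of the input injured libraries ran from 4.03% to 9.72% and those of the input naive libraries from 3.92% to 8.20%. They account for the counting error of reads alone. Where no molecular identifiers were used, several reads can come from 1 molecule, and the intervals are then too narrow.

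Mean proximal shares were 2.47% ± 0.247 in IP injured, 1.49% ± 0.378 in IP naive, 6.39% ± 2.25 in input injured and 6.36% ± 1.62 in input naive ganglia (SD, n = 3 each). The IP injured mean was 3.92 percentage points below the input injured mean, and the IP naive mean 4.87 points below the input naive mean. Neither pair of groups overlapped, and a two-sided exact permutation test gave p = 0.1 for each, the smallest p that 3 against 3 libraries allow. IP injured lay 0.982 points above IP naive, again without overlap and with an exact permutation p of 0.1. How many other genes have site shares that separate these groups in the same way was not counted. Input injured and input naive shares overlapped and differed by 0.0266 points (exact permutation p = 0.9). The distal end took the rest, 97.5% of Calm3 counts in IP injured, 98.5% in IP naive, 93.6% in input injured and 93.6% in input naive ganglia. The spread was wider in input, where single libraries ranged from 4.51% to 8.89%.

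**Figure D4:**
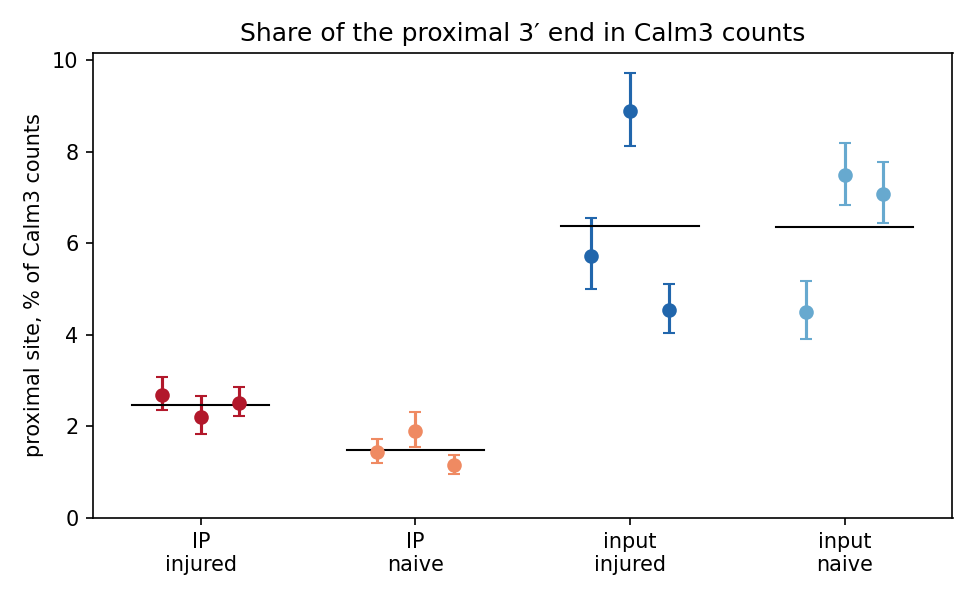
Proximal site as a percent of Calm3 counts, 1 point per library with its 95% Wilson interval, and the group mean as a black line. All 6 IP libraries were at 2.69% or lower and all 6 input libraries at 4.51% or higher. How many other genes separate the fractions in this way was not counted.

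A model of site use within genes (diffSpliceDGE of edgeR) asked whether that share differed between groups, for 5371 genes with more than 1 tested site. In IP naive against input naive ganglia the log2 use of the proximal Calm3 site was -1.49 relative to the gene as a whole (gene-level adjusted p = 0.00723, edgeR F test, and 0.015 by its Simes test). Calm3 ranked 3 of 5371 genes by p and was one of the 11 genes (0.205%) that passed. The call was lost without IP naive 1 (adjusted p = 0.062, edgeR), IP naive 3 (0.131) or input naive 2 (0.0601), with log2 use of -1.62 to -1.36 over the 6 libraries left out in turn. In IP injured against input injured ganglia the log2 use was -0.91, with an unadjusted p of 0.00155 from edgeR and rank 9, but the adjusted p was 0.793 and only 1 gene (0.0186%) passed, the neurotrophin receptor gene Ntrk2, named after its value was seen. An effect that passed in naive and not in injured ganglia is not shown to differ between them. The test of that difference gave a log2 use of 0.57 (adjusted p = 0.919, edgeR).

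Nerve crush did not change Calm3 site use past the test either. In IP injured against IP naive ganglia the log2 use of the proximal site was 0.55, with an unadjusted p of 0.0487 and an adjusted p of 1 (edgeR). No gene passed in this comparison (0%), and 209 had an unadjusted p under 0.05. In input injured against input naive ganglia the log2 use was -0.03 (adjusted p = 1, edgeR), again with no gene passing (0%) and 453 with an unadjusted p under 0.05. The interaction also had none (0%), with 330 genes at an unadjusted p under 0.05. A share of about 0.05 of the 5371 genes would reach that in each comparison with no effect at all. Summed markers of satellite glia, the cells that wrap sensory neurons, were 680 to 895 CPM in IP injured against 431 to 582 CPM in IP naive libraries. Their part in the difference between the IP groups was not tested.

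The share of Calm3 in the reads of both genes overlapped between all groups. It took 15.4%, 13.1% and 17.9% of the summed Calm2 and Calm3 counts in IP injured libraries, and 16.5%, 10.95% and 16.8% in IP naive libraries. It took 14.6%, 17.5% and 23.6% in input injured and 16.2%, 15.99% and 20.98% in input naive libraries. Means were 15.5% ± 2.37 in IP injured, 14.8% ± 3.30 in IP naive, 18.6% ± 4.62 in input injured and 17.7% ± 2.82 in input naive ganglia (SD, n = 3 each), and the exact permutation p was 0.5 to 0.8 in the 4 comparisons. The Alu site of Calm2, outside the rule, took 0.0144% of Calm2 counts in IP injured, 0.0116% in IP naive, 0.0617% in input injured and 0.0345% in input naive ganglia on average. It had between 1 and 28 counts per library and no comparison of its level passed in the site fit.

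Levels of the genes across the 12 libraries did not run together. The Pearson correlation of log2(CPM + 0.5) between Calm2 and Calm3 was 0.02 over 12 libraries. In IP injured, input injured and input naive ganglia, library 3 was the lowest of its group for Calm2 and the highest for Calm3. In IP naive ganglia library 2 was the highest for Calm2 and the lowest for Calm3. The correlation pools these differences within groups with that between fractions, and none was computed within groups. The 5 genes whose pattern was most like that of Calm2 by this measure were Tpd52 (r = 0.958), Rtn3, which encodes a reticulon of the endoplasmic reticulum (0.953), Cd55, a complement inhibitor (0.948), Pafah1b1, a dynein regulator (0.944), and Tomm70a, a mitochondrial import receptor (0.942). Those most like Calm3 were Tnks1bp1 (r = 0.9055), Ndufa4, a mitochondrial protein (0.9005), Dnm1, the vesicle scission protein dynamin (0.893), Add1, an adducin of the membrane skeleton (0.884), and Zfp512b (0.882). The libraries fall into IP and input, so these values include the step between fractions. None of these 10 genes passed the test after nerve crush in either fraction. Of all genes, 1.34% rose and 0.164% fell in IP, and 0.866% rose and 0.277% fell in input. The 10 genes were picked for patterns like those of Calm2 or Calm3, which did not pass after nerve crush either. Their not passing follows largely from that choice and is no separate result.

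Partners of calmodulin and other calcium sensors were read from the same gene fit, in 5 lists with 123 genes, of which 99 were tested. The list of other EF-hand calcium sensors and buffers, with 31 of the 99, does not hold partners of calmodulin. Whether each gene of the other lists, Stmn2 among them, encodes a protein that binds calmodulin was not checked. In IP injured against IP naive ganglia 9 of the 99 rose and none fell, against 1.34% and 0.164% of all genes. The lists were chosen with earlier results of these data known. List counts beside the shares of all genes, here and below, are therefore a description and no test of the lists. The growth-associated protein Gap43, which binds calmodulin at the membrane, had 1541, 1520 and 1412 CPM in IP injured against 517, 599 and 575 CPM in IP naive libraries, a log2 fold change of 1.40 ± 0.11 (SE, adjusted p = 1.76e-07, edgeR). Marcks, which releases membrane lipids on binding calmodulin, rose by 1.22 ± 0.14 and the kinase Camk1 by 1.79 ± 0.19 on the log2 scale. Pde1a, a phosphodiesterase that calmodulin activates, rose by 3.90 ± 0.63, to 17.65, 16.15 and 18.6 CPM in IP injured libraries, against 0.112, 1.11 and 2.255 CPM in IP naive ones. The Pde1a value was 3.36 without IP naive 1 and 4.885 without IP naive 3. Among other EF-hand proteins S100a11 rose by 1.91 ± 0.19 and S100a10 by 0.83 ± 0.10. Summed satellite glia markers were 680 to 895 CPM in IP injured against 431 to 582 CPM in IP naive libraries, and summed macrophage markers 10.1 to 41.3 against 6.18 to 12.4 CPM. Their part in the values of the list genes was not tested. Gap43, Marcks, Camk1, Pde1a, S100a11 and S100a10 passed without each of the 6 libraries in turn. The calcium release channel Itpr1 (2.11 ± 0.41, adjusted p = 0.00708, edgeR) lost its call without IP naive 1 (0.0578) or IP naive 3 (0.05605), and Basp1 (0.49 ± 0.12, adjusted p = 0.0415, edgeR) lost it without any of the 6 libraries (0.0615 to 0.222).

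By list, 1 of 15 tested genes of the calmodulin-dependent kinase list rose after injury in IP, with a list median of -0.18. That list also holds the kinase inhibitor gene Camk2n1. Of 8 calcineurin genes 0 changed, with a median of -0.18. In the list of calmodulin-binding neuronal and membrane proteins 4 of 21 rose (median 0.17), namely Gap43, Marcks, Basp1 and Stmn2. Of the calmodulin-regulated enzymes, pumps and channels 2 of 24 rose (median 0.24), and of the other EF-hand sensors and buffers 2 of 31 (median -0.18). The median of all genes was 0.03. The count of 4 was 2 without IP injured 1, IP injured 3, IP naive 1 or IP naive 2, and that of the enzymes, pumps and channels was 1 without IP naive 1 or IP naive 3. In input injured against input naive ganglia 8 of the 99 rose and 1 fell, Camk2b, a subunit of CaM kinase II, against 0.866% and 0.277% of all genes. Gap43 rose there by 1.32 ± 0.11, Camk1 by 1.70 ± 0.19, Pde1c by 1.17 ± 0.22, S100a11 by 1.74 ± 0.18 and S100a10 by 0.73 ± 0.10, and these 5 passed without each library in turn. Camk2b (-1.05 ± 0.21, adjusted p = 0.0116, edgeR) lost its call without input injured 2 (0.0728) or input naive 1 (0.092). Marcks (0.65 ± 0.13), Stmn2 (0.44 ± 0.10) and Itpr1 (1.85 ± 0.41) also lost theirs without at least 1 library, with adjusted p-values of up to 0.0801, 0.105 and 0.139 (edgeR). The summed macrophage markers were 116 to 184 CPM in input injured against 58.4 to 93.3 CPM in input naive libraries, and their part in these values was not tested.

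**Figure D5:**
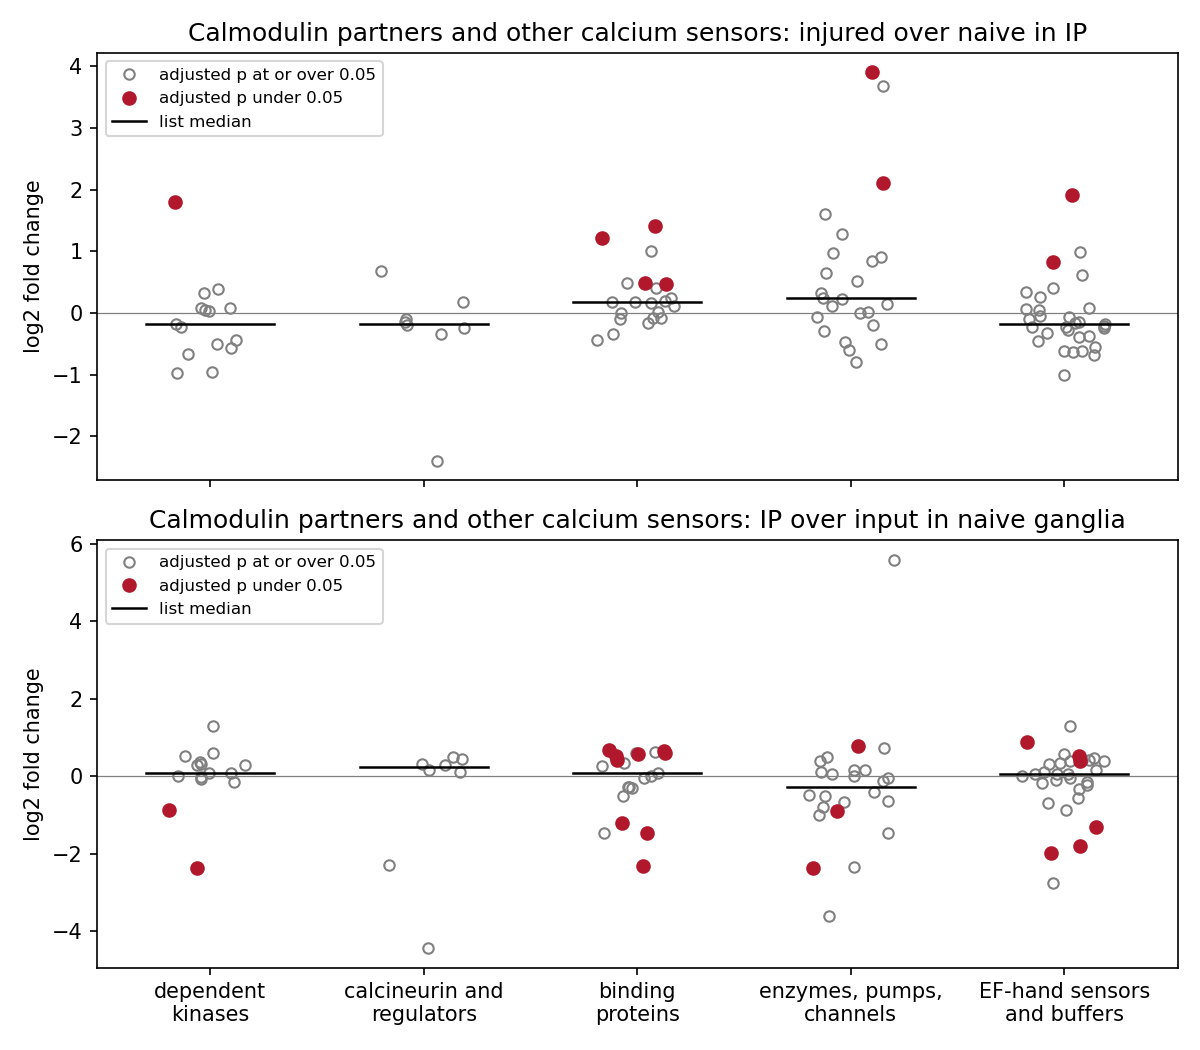
Log2 fold change of each tested gene in 5 lists of calmodulin partners and other calcium sensors, for IP injured over IP naive (top) and IP naive over input naive ganglia (bottom). Filled points have an adjusted p under 0.05, and black lines are list medians. After injury in IP, 9 of 99 genes rose, and between IP and input in naive ganglia 10 were higher and 10 lower.

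Between fractions the genes of the 5 lists went both ways. In IP injured against input injured ganglia 9 of the 99 were higher and 8 lower, against 1.95% and 3.82% of all genes. In IP naive against input naive ganglia 10 were higher and 10 lower, against 1.99% and 4.86% of all genes. Higher in IP injured ganglia were the calcineurin regulator Rcan2 (0.72 ± 0.16), the microtubule minus-end protein Camsap1 (0.79 ± 0.14) and Basp1, a membrane protein of growth cones (0.61 ± 0.12). Lower there were the scaffold Iqgap1 (-2.03 ± 0.35), the myosin light chain kinase Mylk (-2.14 ± 0.40) and S100a4 (-2.01 ± 0.21). In naive ganglia Basp1 was higher (0.60 ± 0.12), while Iqgap1 (-2.33 ± 0.36), Mylk (-2.38 ± 0.40), Marcks (-1.22 ± 0.14), Rcn1 (-1.98 ± 0.29), S100a1 (-1.80 ± 0.35) and S100a4 (-1.32 ± 0.21) were lower. These calls held without each of the 6 libraries in turn, with Mylk in injured ganglia at -2.75 without IP injured 2. Of the genes named by the same rule, 8 of 14 in injured and 10 of 17 in naive ganglia lost their call without at least 1 library. With the library factors of the site fit, 45 list genes passed in injured and 32 in naive ganglia, against 17 and 20 here.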

How the data were processed

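RNA 3′ ends were sequenced with QuantSeq REV. The submitters' processing notes name bcl2fastq 2.17, STAR, HTSeq, GRCm38 and mm10. How intervals were called and multi-mapped reads treated is not given in the sources used here. The authors deposited raw read counts per interval, and 17 unnamed columns and 20 damaged lines were not used. Members and lists were chosen with earlier results of these data known.

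Of 178431 sites, 29964 (73.6% of counts) were summed to 13628 genes. Of 34614 genes considered, 27025 took the annotated strand and 3940 the strand with more counts. Sites in repeats were left out unless within 100 bp of the annotated 3′ end. Total counts of all sites, 10045178 to 18687123 per library, served as library sizes. Genes (11553 tested) and sites (46229 tested) were fitted over all 12 libraries with edgeR 4.0.16 in R 4.3.3 (TMM factors, filterByExpr, quasi-likelihood test, Benjamini-Hochberg adjustment, threshold 0.05), and site use with diffSpliceDGE. Shares were compared by two-sided exact permutation tests (scipy 1.17.1), with 95% Wilson intervals. The gene and site use tests were also run on counts simulated with known changes in IP injured against IP naive ganglia. Those counts held no scaling difference beyond library size and no pairing, so that run does not bear on the IP-to-input calls. Its outcome is not given here. Genes named beside the members were, in each list and comparison, up to 3 with the largest change in each direction among those that passed, and the 5 genes nearest in pattern to each member. Alternatives covered DESeq2 1.42.0, scaling, filters, site rules, a replicate block and each library left out. Same-numbered libraries of different groups correlated at -0.0239 to 0.125 after group means were removed. These values were not set against different-numbered libraries, so they do not show whether numbers pair the libraries. The labels do not tie numbers to pools, and numbers were not treated as pairs. Injured and naive ganglia came from the same animals, yet all tests outside the replicate block treated the 12 libraries as independent. Any pairing in the design is therefore left out of their p-values.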

Additional observations from a re-analysis of the deposited data

How the results depend on the processing

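No direction of a gene sum, site or site use of Calm2 or Calm3 reversed under the settings that kept all libraries. With only the 2 groups compared in the fit, the Calm2 difference between IP naive and input naive was 0.41 (adjusted p = 0.0596, edgeR). Without TMM factors that of the Calm2 site was 0.47 (adjusted p = 0.0805, edgeR). With library factors of the site fit the Calm3 sum in injured ganglia was 0.58 (adjusted p = 0.0204, edgeR), and with a filter of 10 counts the distal site there was 0.74 (adjusted p = 0.0344, edgeR). With the replicate block the distal site passed at 0.62 in injured (adjusted p = 0.0116, edgeR) and 0.47 in naive ganglia (adjusted p = 0.0446, edgeR), and the proximal site use in naive ganglia was -1.46 (adjusted p = 0.0101, edgeR). The block gave more genes that passed in all 4 comparisons. There were 229 in IP and 199 in input after injury (174 and 132 without it), and 945 in injured and 1044 in naive ganglia between fractions (666 and 791). For site use in naive ganglia it gave 5 genes, against 11 without it. The cause of these changes was not tested.

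Counts of genes that passed were 174 in IP and 132 in input after injury, and 666 in injured and 791 in naive ganglia between fractions. DESeq2 gave 350, 284, 1017 and 1265, and 14 for the interaction. Site-fit factors gave 2293 and 1722 between fractions, repeat sites 1291 and 1296, and 2 groups alone 76 in input after injury. Sites that passed numbered 125, 90, 2310 and 1972 in the same order. DESeq2 gave 975, 863, 5799 and 6284, and 77 for the interaction. With 2 groups alone there were 83 in IP after injury, 3878 in injured and 744 in naive ganglia, and without TMM factors 1449 in injured ganglia. Genes with site use that passed numbered 7, 2, 120 and 231 with repeat sites (1 for the interaction), 3, 2, 23 and 34 with nearby sites merged, 1 in IP after injury and 3 in each fraction comparison with 2 groups alone, and 1 in IP after injury with a filter of 10 counts. List genes numbered 45 and 32 between fractions with site-fit factors, and 10 in naive ganglia and 5 in input after injury with 2 groups alone. The share of higher genes among those that passed was 89.1% after injury in IP (75.7% by DESeq2, 78.5% with 2 groups alone), 75.8% in input (62.3% by DESeq2, 54.9% without TMM factors, 53.5% with site-fit factors, 92.1% with 2 groups alone) and 33.8% between fractions in injured ganglia (57.9% without TMM factors, 20.1% with 2 groups alone).

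With each library left out in turn, the Calm2 difference between fractions ran from 0.37 to 0.57 in injured and from 0.32 to 0.51 in naive ganglia, and its interaction from -0.0588 to 0.158. The Calm3 sum ran from -0.15 to 0.10 after injury in IP, from -0.0203 to 0.229 between fractions in naive ganglia and from -0.0427 to 0.207 for the interaction. Proximal site use ran from -1.62 to -1.36 in naive ganglia and from -0.24 to 0.14 in input after injury. The Calm2 site ran from 0.64 to 0.81 and the proximal site from -1.91 to -1.56 in naive ganglia, and the distal site from -0.24 to 0.13 after injury in IP and from 0.58 to 0.86 in injured ganglia. Genes that passed numbered 108 to 198 after injury in IP, 334 to 554 in injured and 489 to 840 in naive ganglia, and 0 to 2 for the interaction. Site use counts were 0 to 2 in IP and 0 to 4 in input after injury, 1 to 2 in injured and 1 to 16 in naive ganglia. List genes numbered 7 to 15 in injured and 10 to 18 in naive ganglia. Sites numbered 67 to 318 in IP and 26 to 55 in input after injury, 409 to 2541 in injured and 520 to 2677 in naive ganglia, and 0 to 1 for the interaction. The 95 to 432 proximal reads per library limit the precision of the Calm3 shares.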
